A study of Mus musculus with 6 samples.

Results

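Mouse autosomes carry their centromere at one end, and the assembled mm9 sequence of each begins about 3 Mb in, after a placeholder for satellite repeats. The 5hmC peaks described here are those at that end: all autosomal peaks with a midpoint at or below 8 Mb, which takes in the first 5 Mb of assembled sequence. The rule uses position only. It selected 587 of the 20583 peaks of the control list (2.85%) and 1440 of the 53374 peaks of the injury list (2.70%), or 2027 of 73957 in all; they are called control peaks and injury peaks below. The lists come from brain DNA of 6 C57BL/6 mice, 3 with ischemic injury (labelled IR) and 3 matched controls, and no other treatment or allele is named in the labels. Age, sex, time after injury and brain area were not stated in those labels. DNA fragments bearing 5hmC were captured by hMe-Seal, in which a sugar with a chemical handle is attached to the base, and were then sequenced.

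5-Hydroxymethylcytosine arises when TET enzymes oxidise 5-methylcytosine, and neurons hold more of it than most other cells. In brain it is known to lie in the bodies of active genes and at enhancers, so that peak-rich stretches often follow gene-rich ones. The chromosome end beside a mouse centromere borders on pericentromeric heterochromatin, which is built of satellite repeats and is strongly methylated. The proximal end of chromosome 19 is known as a gene-dense stretch, and the genes of the nuclear long non-coding RNAs Neat1 and Malat1 lie there. No peak was assigned to a gene, since no annotation of mm9 was used here, and for the same reason no sequence of a peak is shown.

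Each group is represented by 1 peak list, with no value for single mice and no read numbers. The depth is unknown, and without a spread among the mice of a group no test of injury against control was possible. Intervals are 95% intervals, exact Poisson for a count, exact binomial for a share and exact conditional binomial for a ratio. They cover counting error only and treat neighbouring peaks as independent, which makes them too narrow. More reads alone would lengthen a list and raise its scores, and the part of depth in the results was not tested. The score is the peak caller's own value for a peak, starts at 50 in both lists and is used mainly within its list. As an exception, some alternative settings applied the control list's median and 75th percentile scores to both lists.

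The centromere-proximal ends were poorer in 5hmC peaks than the rest of the autosomes, in both lists. They held 6.18 control peaks per Mb against 8.69 in the rest of the autosomes, a ratio of 0.711 (0.654 to 0.772). The injury list had 15.2 peaks per Mb there against 22.6 elsewhere, a ratio of 0.671 (0.636 to 0.707). The opposite ends were rich instead: the last 5 Mb before the final peak of each autosome held 1960 control and 4996 injury peaks, 3.34 (3.04 to 3.67) and 3.47 (3.27 to 3.68) times the proximal numbers. The distal windows end at a peak, whereas the proximal ones start at 3 Mb even where no peak follows, which favours the distal numbers. Counted from the first peak of each autosome, the proximal density was 0.802 (control) and 0.794 (injury) of that in the rest. The median proximal end had 10 control and 35 injury peaks, whereas the median of the other 450 whole windows of 5 Mb was 24 and 71.5.

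This low density was the net of unlike chromosomes. Chromosome 19 alone supplied 208 control peaks (181 to 238), 35.4% of that list's proximal peaks, and 379 injury peaks (342 to 419), 26.3%. Its proximal density was 41.6 control peaks per Mb against 7.77 in the rest of the chromosome, a ratio of 5.36 (4.51 to 6.34), and 75.8 injury peaks per Mb against 23.0, a ratio of 3.29 (2.92 to 3.70). Without chromosome 19 the proximal density was 0.483 (0.435 to 0.535) of that elsewhere for control and 0.522 (0.491 to 0.555) for injury peaks.

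**Figure D1:**
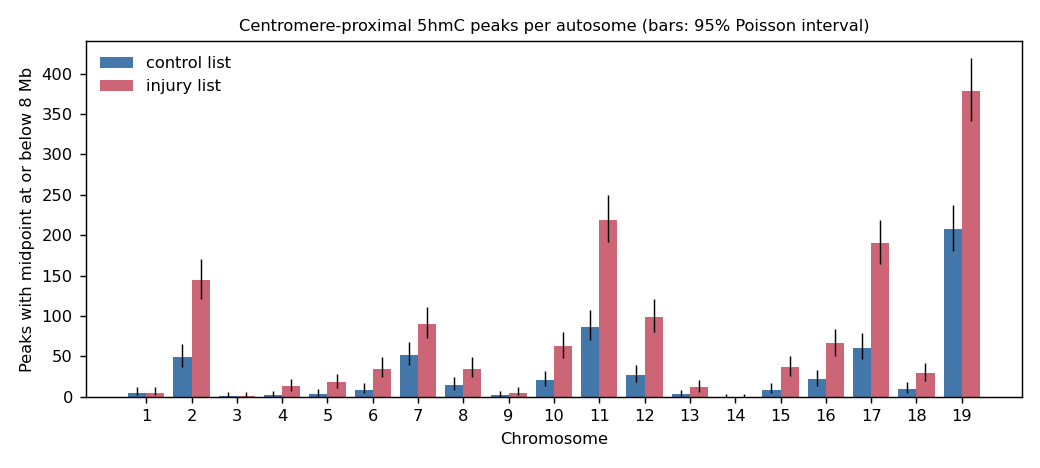
Centromere-proximal peaks of each list (y axis, number of peaks) on each autosome (x axis), with exact Poisson 95% intervals as bars. Chromosome 19 stands highest in both lists with 208 control and 379 injury peaks, and chromosome 14 has none.

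After chromosome 19, the most proximal peaks were found on chromosome 11, with 87 control and 219 injury peaks, and on chromosome 17, with 61 and 190. Chromosome 7 had 52 and 90, chromosome 2 had 49 and 144, and chromosome 12 had 27 and 99. These are all far above the median chromosome, and together with chromosome 19 they make up most of the proximal peaks. At the other extreme chromosome 14 had no peak in either list (a count of 0 has an upper bound of 3.69), chromosome 3 had 1 in each, and chromosomes 4 and 9 had 2 control peaks each, with 13 and 5 injury peaks. The control list was sparser at the proximal end than in the rest of the same chromosome on 15 of 19 autosomes, the exceptions being chromosomes 2, 7, 11 and 19. The injury list was sparser there on 14, the exceptions being chromosomes 2, 11, 12, 17 and 19. On chromosomes 7, 12 and 17 the lists thus lay on different sides. Chromosome 7 had 10.4 control peaks per Mb at its proximal end and 9.72 in its rest, a ratio of 1.07 (0.795 to 1.41), but 18 and 23.6 injury peaks per Mb, a ratio of 0.764 (0.613 to 0.942). On chromosome 17 the ratio was 0.855 (0.649 to 1.11) for control and 1.19 (1.02 to 1.38) for injury peaks, and on chromosome 12 it was 0.839 (0.549 to 1.23) and 1.09 (0.879 to 1.33). The control intervals of these 3 chromosomes take in equal density, and so does the injury interval of chromosome 12.

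Chromosomes 4 and 5 had sparse proximal ends although their remaining sequence is rich in peaks. Chromosome 5 had 0.8 control peaks per Mb proximally and 13.2 elsewhere, and 3.6 and 31.2 injury peaks per Mb. On chromosome 4 the control values were 0.4 and 12.5 per Mb, and the injury values 2.6 and 29.6. A sparse proximal end thus did not go with a sparse chromosome there. Among consecutive windows of 5 Mb, the proximal one was the richest of the 12 windows of chromosome 19 in both lists, the seventh of 18 on chromosome 17 for control and the fifth for injury peaks, and the eighth of 24 on chromosome 11 in both. On chromosome 9 it ranked 24 of 25 in both lists.

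**Figure D2:**
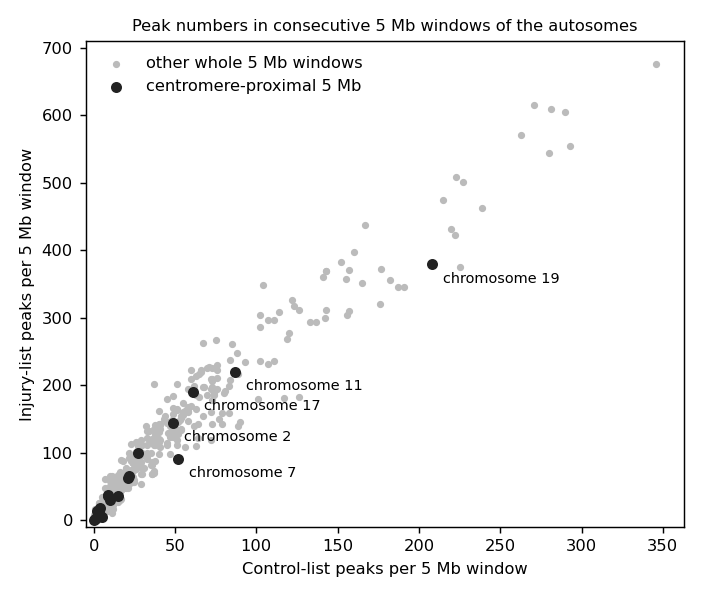
Control peaks (x axis) and injury peaks (y axis) in every whole 5 Mb window of the autosomes; black points are the centromere-proximal windows and grey points the other 450. Most black points lie near the origin, and chromosome 19 lies among the windows richest in peaks, at rank 15 of 469 for control and 17 of 469 for injury peaks.

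Within the first 5 Mb the peaks did not increase steadily with distance from the centromere. Summed over the 19 autosomes, the control list held 43 peaks in the first 0.5 Mb, 86 from 4.5 to 5 Mb and 12 from 7.5 to 8 Mb. The injury list held 102 peaks in the first 0.5 Mb, 231 from 5 to 5.5 Mb and 36 from 7.5 to 8 Mb. Both lists were therefore highest in the middle of the interval and lowest at its far end, beside the limit of the rule. On chromosome 19 the control peaks numbered 3 in the first 0.5 Mb and 42 from 5.5 to 6 Mb, and the injury peaks 13 and 68. Between 7.5 and 8 Mb chromosome 19 had 0 control and 5 injury peaks, and the next 5 Mb of that chromosome held 35 and 82.

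**Figure D3:**
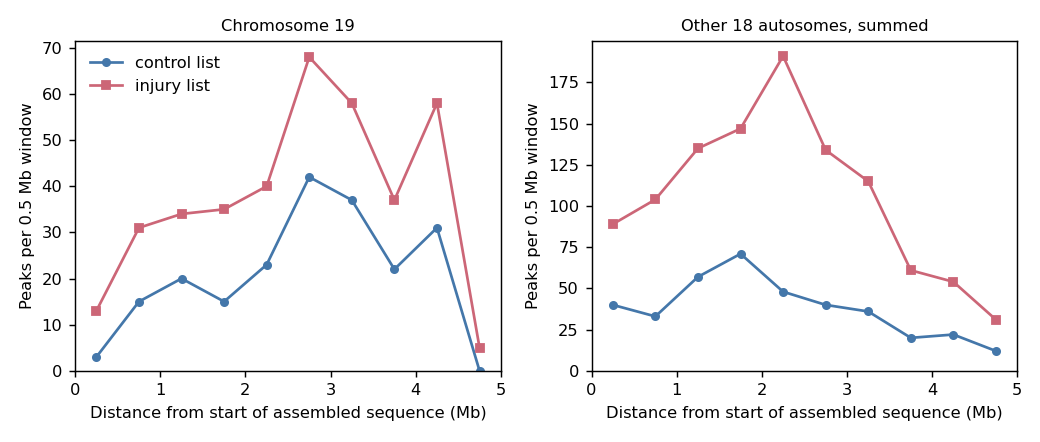
Peaks per 0.5 Mb window (y axis) by distance from the start of assembled sequence at 3 Mb (x axis), for chromosome 19 and for the sum of the other 18 autosomes. On chromosome 19 both lists are highest from 2.5 to 3 Mb into the sequence, with 42 control and 68 injury peaks, and both fall to 5 or fewer in the last window.

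The richest single windows of 0.5 Mb lay on chromosomes 19 and 17. On chromosome 19 the window from 5.5 to 6 Mb held 42 control and 68 injury peaks, the one from 6 to 6.5 Mb 37 and 58, the one from 7 to 7.5 Mb 31 and 58, and on chromosome 17 the window from 5 to 5.5 Mb held 20 and 66 and the one from 5.5 to 6 Mb 14 and 52. The chromosome 17 windows had the largest surplus of injury peaks, 46 and 38, followed by chromosome 11 from 5.5 to 6 Mb with 29 (12 control and 41 injury peaks). Injury peaks were 76.7% (66.4 to 85.2%) of the peaks from 5 to 5.5 Mb on chromosome 17 and 78.8% (67.0 to 87.9%) of those from 5.5 to 6 Mb, and these intervals take in the 72.2% found over the rest of the autosomes.

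Of the 190 proximal windows of 0.5 Mb, 111 held a peak and 79 held none. The injury list had more peaks in 93 of the 111 (83.8%, 75.6 to 90.1%), against 90.8% of all autosomal windows with a peak. Equal numbers were found in 10, and the control list had more in 8, each by 1 peak. The first of these 8 along the genome were on chromosome 1 between 3.5 and 4 Mb (1 control and 0 injury peaks), chromosome 3 between 7 and 7.5 Mb (1 and 0) and chromosome 5 between 4 and 4.5 Mb (2 and 1). Such counts are too small to show a direction. A total of 18 windows had injury peaks alone and 5 had control peaks alone. The matching shares over all autosomal windows were not computed, so these counts only describe the proximal windows.

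The next comparison asked whether the lists differed at the proximal ends in the same proportion as elsewhere. The injury list had 2.45 times (2.23 to 2.70) as many proximal peaks as the control list, and 2.60 times (2.56 to 2.64) as many in the rest of the autosomes. Expressed as a share of the peaks of both lists, injury peaks were 71.0% (69.0 to 73.0%) proximally, 72.2% (71.9 to 72.5%) in the rest and 71.8% (70.7 to 72.9%) in the distal 5 Mb. These intervals overlap. The proximal value turned on chromosome 19: without it injury peaks were 73.7% (71.3 to 75.9%).

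At the proximal end of chromosome 19 the injury share was 64.6% (60.5 to 68.4%), and in the rest of that chromosome 74.8% (72.6 to 76.9%). The difference was -10.2 percentage points, with a Newcombe interval of -14.7 to -5.88. It was -12.9 points after peaks within 1 kb were merged and -11.6 points in covered bases. It was smaller when only the highest-scoring injury peaks were kept, in the number of the control list, with shares of 49.5% and 51.4%. The difference was then -1.84 points (-7.69 to 4.03), and this interval overlaps the main one, so the difference is not shown to be gone. That setting kept injury peaks from a score of 105.41 but control peaks from 50. With the control list's median score applied to both lists, the difference was -12.0 points (-17.5 to -6.59). With its 75th percentile score it was -13.5 points (-20.4 to -6.84). Among whole windows of 5 Mb, 27 others were peak-rich, with at least 150 control peaks. Their injury shares ran from 62.5 to 72.4%, with a median of 67.6%, and proximal chromosome 19 lay inside that range. A choice by control number itself favours low injury shares. The range therefore does not show whether the share of proximal chromosome 19 is ordinary.

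Chromosome 7 had the lowest proximal injury share among autosomes with at least 40 proximal peaks, 63.4% (54.9 to 71.3%), against 70.8% (69.5 to 72.1%) in the rest of that chromosome, a difference of -7.40 points whose Newcombe interval, -15.7 to 0.189, takes in 0. Chromosome 17 lay the other way, with 75.7% (69.9 to 80.9%) proximally and 69.1% (67.6 to 70.6%) in its rest. Its difference was 6.58 points (0.731 to 11.7), and 8.34 points (-0.158 to 16.5) with the injury list reduced as above. Such differences were computed on 11 autosomes with no adjustment of the intervals, and those of chromosomes 17 and 19 were the ones whose interval left out 0. Chromosome 12 had 78.6% (70.4 to 85.4%) and 73.9% (72.2 to 75.6%), and chromosome 11 had 71.6% (66.2 to 76.6%) and 69.8% (68.6 to 71.0%). Of the 18 autosomes with a proximal peak, 16 had more injury than control peaks there, and chromosomes 1 and 3 had equal numbers, 5 and 5 and 1 and 1.

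**Figure D4:**
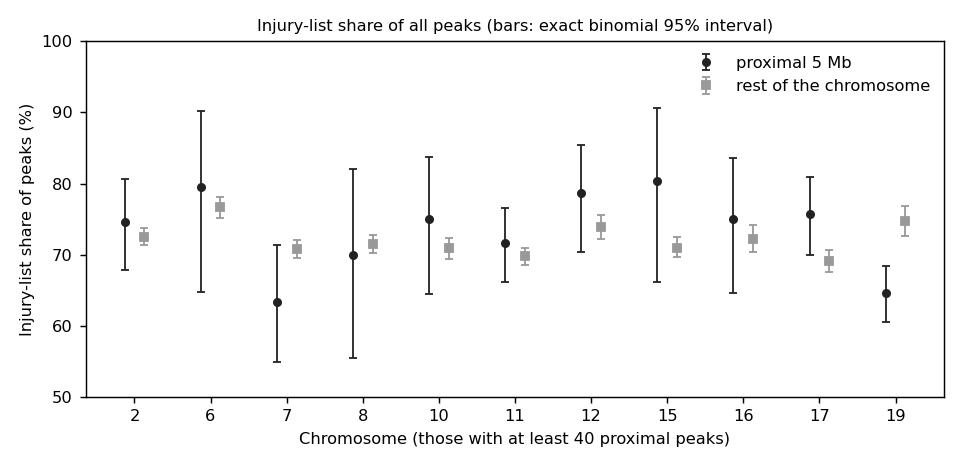
Injury share of the peaks of both lists (y axis, percent) at the proximal 5 Mb (circles) and in the rest of the same chromosome (squares), for the autosomes with at least 40 proximal peaks, with exact binomial 95% intervals. The intervals are apart on chromosome 19 alone, at 64.6% and 74.8%.

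The proximal peaks of the lists were then compared by place. Of the proximal control peaks, 459 of 587 (78.2%, 74.6 to 81.5%) shared 1 bp or more with an injury peak, against 81.3% of all autosomal control peaks. Of the proximal injury peaks, 499 of 1440 (34.7%, 32.2 to 37.2%) overlapped a control peak, against 34.2% of all autosomal injury peaks. Both shares are close to their backgrounds. Joined into regions, the proximal peaks of both lists gave 1502 regions that covered 4.01 Mb, of which 433 (28.8%, 26.5 to 31.2%) held peaks of both lists, 128 control peaks alone and 941 injury peaks alone. In the rest of the autosomes 28.7% (28.3 to 29.0%) of regions held both.

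Here again chromosome 19 differed from the other proximal ends. Of its proximal injury peaks 199 of 379 (52.5%, 47.3 to 57.6%) were also in the control list, compared with 28.3% (25.8 to 30.9%) in the rest of chromosome 19 and 28.3% (25.6 to 31.1%) at the proximal ends of the other autosomes. The share at the other proximal ends was below the 34.3% (33.9 to 34.7%) of the remaining sequence of those autosomes. Of the proximal control peaks of chromosome 19, 176 of 208 (84.6%, 79.0 to 89.2%) were shared, compared with 74.7% (70.0 to 79.0%) at the other proximal ends, whose remaining sequence had 81.5% (81.0 to 82.1%). In the 27 peak-rich windows named above, the shared part ran from 37.4 to 63.5% of the injury peaks (median 45.4%). Of the control peaks it was 77.0 to 94.3% (median 86.2%), and proximal chromosome 19 lay within both ranges. Since these windows were chosen by control number, which bears on the shared part, the ranges are a description only.

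By chromosome, sharing of the injury peaks was also frequent on chromosome 7, with 48 of 90 (53.3%, 42.5 to 63.9%), against 37.6% (35.9 to 39.2%) in its rest. It was 31.5% (25.4 to 38.1%) on chromosome 11, 27.4% (21.2 to 34.3%) on chromosome 17, 25.7% (18.8 to 33.6%) on chromosome 2 and 24.2% (16.2 to 33.9%) on chromosome 12. The control peaks were shared in 45 of 52 cases on chromosome 7 (86.5%, 74.2 to 94.4%), near the 83.0% (80.9 to 84.9%) of its rest. The shared part was 80.5% (70.6 to 88.2%) on chromosome 11, 80.3% (68.2 to 89.4%) on chromosome 17 and 69.4% (54.6 to 81.7%) on chromosome 2. On chromosome 10, 11 of 21 control peaks (52.4%, 29.8 to 74.3%) were shared, and on chromosome 18, 5 of 10 (50.0%, 18.7 to 81.3%). Apart from chromosome 7, the share in the rest of the same chromosome is not given here. On chromosome 9 none of the 2 control and 5 injury peaks overlapped, and on chromosome 3 the single peaks of the lists lay 162 kb apart.

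**Figure D5:**
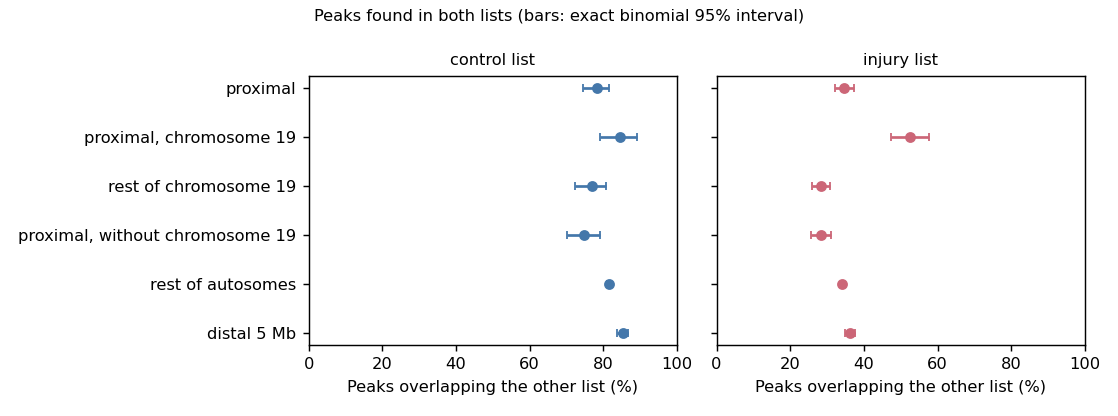
Share of the peaks of each list that overlap the other list by at least 1 bp (x axis, percent) in 6 sets of peaks (y axis), with exact binomial 95% intervals. Of the injury peaks at the proximal end of chromosome 19, 52.5% are shared, against 28.3% at the other proximal ends and 34.2% in the rest of the autosomes.

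Within each list, proximal peaks with higher scores were more often shared, as were those in the rest of the autosomes. In the lowest-scoring 10% of the injury list 13.3% (8.19 to 20%) of the proximal peaks were shared, and 85.9% (79.6 to 90.8%) in the top 10%, where the rest of the autosomes had 84.8%. For the control list the values were 67.2% (54.0 to 78.7%) in the lowest 10% and 97.6% (91.5 to 99.7%) in the highest. The rest of the autosomes had 67.4% and 96.0% there, and 12.8% in the lowest 10% of the injury list. Proximal control peaks fell into the top 10% of their list in 14.0% of cases (11.3 to 17%), and proximal injury peaks into that of theirs in 11.3% (9.73 to 13.1%). The control interval lies above the 10% that the division sets, and the injury interval takes it in. Without chromosome 19 the values were 11.9% (8.79 to 15.6%) for control and 8.29% (6.70 to 10.1%) for injury peaks. Both of these intervals take in 10%, but they rest on fewer peaks, and the control value stayed above 10%.

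Peaks of 1 list alone were low in score and narrow, at the proximal ends as in the rest of the autosomes. The 128 proximal control peaks without a counterpart had a median score of 63.5, against 90.5 for the shared ones, and median widths of 1924 and 2745 bp. The 941 proximal injury peaks without a counterpart scored 74.3 at the median, against 151.2 for the shared ones, with median widths of 1768 and 2573 bp. In the rest of the autosomes the median scores were 64.1 and 84.8 for control and 75.6 and 139.7 for injury peaks. The median widths there were 2094 and 2809 bp for control and 1896 and 2578 bp for injury peaks. Of the 128, 66 (51.6%, 42.6 to 60.5%) lay within 5 kb of an injury peak and 17 (13.3%) lay beyond 50 kb. The matching parts in the rest of the autosomes were 50.4% and 10.9%. All 17 were among the 96 unshared control peaks of chromosomes other than 19, of which they made up 17.7%. Of the 941, 284 (30.2%, 27.3 to 33.2%) lay within 5 kb of a control peak, against 30.6% in the rest of the autosomes. A further 186 (19.8%, against 20.4%) lay beyond 50 kb, of which 181 were outside chromosome 19. Of the 761 unshared injury peaks at the other proximal ends, 25.5% (22.4 to 28.7%) lay within 5 kb and 23.8% beyond 50 kb.

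Peak widths at the proximal ends were close to those elsewhere. The median was 2555 bp (interval of the median 2468 to 2653) in the control list, against 2658 bp (2637 to 2677) in the rest of the autosomes. In the injury list it was 1995 bp (1922 to 2049), against 2059 bp (2048 to 2070). Without chromosome 19 the medians were 2410 bp (2345 to 2541) and 1909 bp (1844 to 1964), below the rest in both lists, and on proximal chromosome 19 they were 2896 bp (2745 to 3267) and 2251 bp (2110 to 2428), above the rest. Proximal peaks ran from 1.04 to 12.2 kb in the control list and from 0.691 to 15.3 kb in the injury list.

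The lists can be compared most directly where exactly 1 peak of each overlapped, which was so for 367 proximal pairs. The control peaks of these pairs had a median width of 2602 bp and the injury peaks of 2514 bp. The injury member of the pair was narrower in 207 (56.4%, 51.2 to 61.5%), against 53.7% (52.9 to 54.6%) in the rest of the autosomes. On proximal chromosome 19 it was narrower in 66 of 130 pairs (50.8%, 41.9 to 59.6%). Elsewhere it was so in 141 of 237 (59.5%, 52.9 to 65.8%), with a median injury-to-control width of 0.948. The scores of the 367 pairs went together with a Spearman correlation of 0.52 across pairs (0.44 in the 237 pairs outside chromosome 19, and 0.38 in the 12596 pairs of the rest of the autosomes), as a description of peaks that share libraries and local sequence. Of the proximal control peaks 58 (9.88%, 7.59 to 12.6%) overlapped 2 or more injury peaks, and 24 proximal injury peaks (1.67%, 1.07 to 2.47%) overlapped 2 or more control peaks. Both shares were near those of the rest of the autosomes, 11.5% (11.1 to 12.0%) and 1.86% (1.74 to 1.98%). On proximal chromosome 19 they were 14.4% (9.95 to 19.9%) and 3.69% (2.03 to 6.12%). At the other proximal ends they were lower, 7.39% (4.97 to 10.5%) and 0.943% (0.453 to 1.73%). The remaining sequence of those autosomes had 11.5% (11.1 to 12.0%) and 1.87% (1.76 to 1.99%).

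Proximal peaks stood near one another about as often as peaks elsewhere. In the control list 49.2% (45.1 to 53.4%) had another control peak within 5 kb, against 49.1% (48.4 to 49.8%) in the rest of the autosomes, and in the injury list 68.7% (66.2 to 71.1%) against 70.3% (69.9 to 70.7%). Chromosome 19 was more crowded, with 64.9% (58.0 to 71.4%) and 84.2% (80.1 to 87.7%), and the other proximal ends less so, with 40.6% (35.6 to 45.8%) and 63.1% (60.2 to 66.1%). The median gap to the next peak of the same list was 3.01 kb for control and 0.822 kb for injury peaks on proximal chromosome 19, and 8.08 and 2.78 kb at the other proximal ends.

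The highest-scoring proximal peaks of the control list lay on chromosomes 7 and 19. On chromosome 7 they were at 6082860 to 6085437 (2.58 kb, score 3103.86), 4979691 to 4985780 (6.09 kb, score 3100) and 4941786 to 4947564 (5.78 kb, score 2166.22). On chromosome 19 they were at 5306095 to 5308872 (2.78 kb, score 3100) and 6422708 to 6434177 (11.5 kb, score 2773.4). All 5 overlapped at least 1 injury peak, the best of which scored, on the scale of that list, 254.2, 1181.59, 799.32, 607.47 and 1214.46 in the order given. Of the 20 highest-ranked autosomal control peaks 4 were proximal, 2 on chromosome 7 and 2 on chromosome 19, and of the 20 highest-ranked injury peaks none was. Among the 1000 highest ranks the proximal part was 4.41% for control and 3.30% for injury peaks, compared with 2.86% and 2.70% of all autosomal peaks. Of these 44 proximal control peaks, 10 lay on chromosome 7 and 20 on chromosome 19, and of the 33 injury peaks 5 and 8.

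The highest-scoring proximal peaks of the injury list were more spread over chromosomes. They lay on chromosome 16 (4934697 to 4938036, score 1285.86, 3.34 kb), chromosome 19 (6426319 to 6434112, score 1214.46, 7.79 kb), chromosome 7 (4980068 to 4984066, score 1181.59, 4.0 kb), chromosome 17 (6941600 to 6950333, score 971.89, 8.73 kb) and chromosome 19 again (6401808 to 6406202, score 826.84, 4.39 kb). Each overlapped a control peak. The first of the chromosome 19 peaks and the chromosome 7 peak are the counterparts of control peaks named above, so that 2 places stood among the leading 5 of both lists.

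The widest proximal peaks lay mostly on chromosome 19. In the control list these were peaks of 12.2 kb (6466944 to 6479138), 11.5 kb (6525361 to 6536837) and 11.5 kb (6422708 to 6434177, the high-scoring peak above). The first of them matched a single injury peak of 11.8 kb (6467147 to 6478925), while the second was overlapped by 4 injury peaks. The other wide control peaks were on chromosome 8 (3603236 to 3614790, 11.6 kb, overlapped by 3 injury peaks) and chromosome 11 (5075884 to 5086323, 10.4 kb, overlapped by 2). The widest injury peak, 15.3 kb on chromosome 11 (3418952 to 3434294), overlapped 4 control peaks. The next, 13.4 kb on chromosome 17 (6950670 to 6964118), began 0.336 kb after the high-scoring chromosome 17 peak. The remaining 2 wide injury peaks, of 11.2 and 10 kb, were again on chromosome 19 (6540011 to 6551245 and 6342162 to 6352200).

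Proximal peaks found in 1 list alone included a few with high scores. The control peaks of this kind lay on chromosome 9 (4259670 to 4261413, score 264.25, 1.74 kb), chromosome 19 (4397765 to 4399318, score 205.97, 1.55 kb), chromosome 17 (4625532 to 4627347, score 172.38, 1.82 kb), chromosome 11 (6306912 to 6312739, score 152.47, 5.83 kb) and chromosome 16 (4238866 to 4240740, score 147.99, 1.88 kb). The chromosome 9 peak stood alone, 3511 kb from the nearest injury peak and 3568 kb from the nearest other control peak. The chromosome 17 peak was 151 kb from an injury peak, the chromosome 19 peak 37.8 kb, the chromosome 16 peak 25.5 kb and the chromosome 11 peak 3.14 kb. Except on chromosome 11 these peaks were narrower than the median control peak.

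The injury peaks without a counterpart that scored highest were wider and less isolated. They lay on chromosome 11 (5100605 to 5106766, score 461.39, 6.16 kb), chromosome 19 (4288884 to 4295681, score 424.74, 6.80 kb; 6009917 to 6015347, 5.43 kb, score 313.98; 7218514 to 7222804, 4.29 kb, score 305.58) and chromosome 17 (5956994 to 5961339, score 302.58, 4.35 kb). Their distances to a control peak ran from 1.37 to 14.3 kb. Each had another injury peak within 2 kb, at 0.296 to 1.82 kb. The longer injury list is denser in general: its proximal peaks had a median gap of 2.10 kb to their own list, against 5.33 kb for control peaks. These peaks were also picked from 941 unshared injury peaks, and the control ones from 128, so the contrast shows no difference between the groups. Whether each mouse of a group had these regions is not known.

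The peak nearest to the centromere was on chromosome 2 in both lists, 0.0508 Mb into the assembled sequence in the control list (3050750 to 3053904) and 0.0494 Mb in the injury list (3049364 to 3052626), and these peaks overlapped. On chromosome 7 the first peaks also coincided (3263896 to 3265725 for control and 3264031 to 3265653 for injury peaks), and so did those on chromosome 4 (5573890 to 5575948 and 5573987 to 5575804). The lists differed on chromosome 16, where the first control peak (3114161 to 3116356) lay 775 kb from the nearest injury peak, and on chromosome 1 (3520977 to 3522599), where it lay 1155 kb from one. On chromosome 9 the first injury peak came at 7772893, far beyond the isolated control peak described above. Chromosome 14 had its first peaks at 8606279 in the injury list and 8637611 in the control list, which is beyond the limit of the rule.

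At the limit of 8 Mb, the rule separated neighbouring peaks by position alone. The last control peaks at or below it lay 4.88 to 2617 kb away over the 18 autosomes that had one, with scores of 51.9 to 884.4, and the first beyond it 5.12 to 5514 kb away over 19 autosomes, with scores of 50.9 to 554.9. In the injury list these distances were 3.64 to 3320 kb (scores 50.0 to 512.1) and 13.6 to 5365 kb (scores 50.9 to 143.2). Median scores in the control list were 67.4 inside and 89.7 outside, and in the injury list 64.2 and 63.0.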

How the data were processed

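5hmC-enriched DNA of 3 control and 3 injured mice had been sequenced, and the authors deposited 1 headerless peak list per group, with positions and a score for each peak. MACS 1.4.2, Bowtie 0.12.9 and CASAVA 1.4 stand in the submitters' processing notes, with build mm9 and no settings. The deposited score starts at 50 and is taken to be -10 times the base-10 logarithm of a p-value. Not given in the sources used here were pooling of mice, an input control, depth and the treatment of reads that match several places; such reads could change peak numbers near repeats, which was not tested. Lists were assigned to groups by the name they share with the sample titles.

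Proximal peaks were taken by midpoint, and peaks sharing at least 1 bp counted as overlapping. The rest of an autosome ran from 8 Mb to its last peak. Positions count from 1. Functions were tested on simulated peaks. The software was scipy 1.17.1, pandas 2.3.3 and numpy 2.4.6 under Python 3.11.15, with matplotlib 3.10.9. Named regions follow a rule: in each list the 5 highest-scoring, the 5 highest-scoring without overlap, the 5 widest and the first on each chromosome, and windows by peak number and difference, with ties broken by width, then position. The separate values for chromosomes 4, 5, 7, 12, 17 and 19, and the peak-rich windows, were chosen after values were seen. Members and lists were chosen with earlier results of these data known. Content of GC and CpG and genes at peaks were planned and not analysed, for want of a genome or annotation of mm9.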

Additional observations from a re-analysis of the deposited data

How the results depend on the processing

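No paired analysis was possible because the mice of a group stand behind a common list, and no mouse could be left out. Settings tried were other limits (6 or 13 Mb), 5 Mb from each chromosome's first peak, scores at or above the control median (79.7) or 75th percentile (120.4), merging within 1 kb, an injury list shortened by score to as many peaks as in control (the reduced list), other overlap rules, covered bases and leaving out each autosome. The injury-to-control ratio of 2.45 turned to 0.966 with the reduced list, as its construction sets, and the injury share of 71.0% to 49.1%. It was 2.78 (share 73.5%) at 13 Mb, 2.77 (73.5%) at the 75th percentile, 2.17 (68.4%) after merging and 1.97 in covered bases; leaving out autosomes gave 2.38 to 2.80 and 70.4 to 73.7%, highest without chromosome 19. The density relative to the rest stayed below 1 under every alternative run in both lists: in the control list 0.827 at 6 Mb, 0.580 at 13 Mb, 0.802 from the first peak, 0.813 at the 75th percentile and 0.483 (without chromosome 19) to 0.772 (without chromosome 5), and in the injury list 0.799, 0.624, 0.794 and 0.522 to 0.717 for the limits, the first peak and the autosomes left out. Shared control-list peaks made up 82.2% at the control median, 57.9% with the reduced list, 63.5% with an overlap of 50% of both peaks, 81.9% within 1 kb and 74.7 to 79.2% without single autosomes. Shared injury-list peaks made up 29.7% at 13 Mb, 32.0% at the 75th percentile, 61.7% with the reduced list, 25.9% with 50% overlap, 39.6% within 1 kb and 28.3 to 35.8% without single autosomes. Median widths were 3237 and 3660 bp (control) and 2536 and 3073 bp (injury) at the 2 score thresholds, 2123 bp (injury) after merging, 2818 bp (injury) in the reduced list, and 2410 to 2576 and 1909 to 2002 bp without single autosomes. The differences on chromosomes 7, 17 and 19 were added after the data were seen; that of chromosome 19 was -1.84 points with the reduced list and -8.14 to -13.5 points otherwise. Except where the construction shows it, the cause of these moves was not tested. The analyses by genomic feature were not run, and the unknown depth limits every comparison of the lists.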

Other observations

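Long stretches with no peak of either list were found at the proximal ends and elsewhere. Counting from 3 Mb, 26 stretches of at least 1 Mb began at or below 8 Mb, on 18 of the 19 autosomes, chromosome 17 being the exception, and 355 began beyond 8 Mb, on 19 of 19. Such stretches took up 48.2% of the proximal sequence and 39.9% of the rest, and the longest beyond 8 Mb measured 11.6 Mb. The longest that began proximally ran for 6.11 Mb on chromosome 7 (7253518 to 13364335), mostly beyond the 8 Mb limit. The next were the first 5.61 Mb of chromosome 14, the first 4.37 Mb of chromosome 3, 3.51 Mb on chromosome 9 (4261414 to 7772892) and 3.21 Mb on chromosome 8 (4680406 to 7891508). How much of each stretch reads can be placed on was not analysed here.

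Some overlapping proximal peaks ranked far apart in their lists. The chromosome 7 peak at 6082860 to 6085437 ranked 2 in the control list, and the injury peak over almost the same bases (6082876 to 6085314) ranked 4530, which is still in the top 10% of the injury list. The first control peak of chromosome 5 (3732359 to 3733648, 1.29 kb) had a score of 315.67 at rank 931, and its counterpart (3732720 to 3733640, 0.921 kb) a score of 50.05 at rank 53319 of 53374. A contrast in the other direction was seen on chromosome 17, where the injury peak at 6941600 to 6950333 ranked 84 and the best of the control peaks below it ranked 6177. Ranks come from lists of different lengths, and these pairs were picked after their values were seen.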
